A study of Homo sapiens with 18 samples.

Results

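Gene expression was compared between MOLM-13 cells exposed to NTX-301 and MOLM-13 cells exposed to decitabine (DAC), with 3 samples of each drug. These are 6 of the 18 samples of a series in which MOLM-13 and HL-60 cells received the solvent dimethyl sulfoxide (DMSO), DAC or NTX-301, each for 48 h (day 2) and each with 3 replicates. The 6 samples were taken by their labels, and the 3 MOLM-13 samples with DMSO entered the same fit of 9 samples only to estimate the spread and to show on which side of the solvent level each drug lay. The comparison asks where 2 drugs of one class part in their effect on the same cells. The concentration stated for MOLM-13 was 15 nM, and the wording does not say whether it holds for both drugs or for DAC alone, so it is not established that the doses were matched. MOLM-13 is 1 established line grown in culture, the replicates are labelled as triplicate wells of it, and p-values therefore measure the spread between such samples, which may be technical.

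DAC is a deoxycytidine analogue that deoxycytidine kinase phosphorylates, that is built into DNA in place of cytidine, and that traps the maintenance methyltransferase DNMT1, so that methylation is lost over successive divisions. NTX-301 is a compound of the same class, a nucleoside inhibitor of DNA methyltransferase. MOLM-13 comes from an acute monocytic leukaemia and carries the KMT2A-MLLT3 fusion and a FLT3 internal tandem duplication. In leukaemias of this kind the fusion protein drives HOXA genes and MEIS1, which hold the cells immature, and hypomethylating drugs are known to release myeloid maturation genes and p53 targets.

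Every value below is a normalised expression value on a log2 scale as deposited, or a difference of 2 such values. Read depth is unknown, and values of low genes are drawn to the mean of the 9 samples, so differences are compressed. Values are not divided by transcript length, and no level is compared between genes. The SD within a group, as the median over genes, was 0.0385 for DMSO, 0.0429 for DAC and 0.0366 for NTX-301. The first 2 principal components held 60.5% and 12.4% of the variance, and on the second all DAC samples lay below 0 and all NTX-301 samples above 0. Of 15 markers of a monocytic leukaemia line, 14 were listed, among them PTPRC, CD33, SPI1, FLT3 and HOXA9, and FCER1G was not. Their summed linear value lay between 2.328e+05 and 2.42e+05 in DMSO samples, 2.914e+05 and 3.058e+05 in DAC samples, and 2.345e+05 and 2.425e+05 in NTX-301 samples, a sum of which the lysozyme gene LYZ alone gave 1.514e+05 to 1.644e+05 with DAC and 8.796e+04 to 1.016e+05 in the other samples. Without LYZ the sums were 1.448e+05 to 1.49e+05, 1.393e+05 to 1.416e+05 and 1.377e+05 to 1.409e+05. Of the markers of other lineages, 3 of 8 were listed for B cells (PAX5, EBF1 and IGLL1) and 3 of 11 for T and NK cells (CD3D, TRAC and NKG7). For erythroid cells 4 of 12 were listed (HBA1, HBA2, HBB and EPOR), and for megakaryocytic cells 1 of 8 (ITGA2B). For fibroblast and epithelial cells 3 of 10 were listed (COL1A1, KRT8 and KRT18), with 1 called lower with NTX-301 than with DAC. For eosinophils, basophils and mast cells 6 of 9 were listed (EPX, PRG2, CLC, CCR3, MS4A2 and TPSAB1). Among the markers not listed were CD79A, CD3E, CD2, GATA1, PF4 and EPCAM. The T and NK sum was 1879 to 1994 with DMSO, 2187 to 2278 with DAC and 2438 to 2461 with NTX-301, with 1 member called higher with NTX-301 than with DAC. The erythroid sums overlapped, between 1426 and 2019, with none called. The B cell sum was 971.9 to 1017, 619.7 to 663.3 and 688.6 to 745.8, with none called. The part of these cell types in the results was not tested. In such bulk samples, fewer cells of a type and less RNA per cell cannot be told apart.

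Differences between the drugs were many but small. At an adjusted p under 0.05 (limma, Benjamini-Hochberg over all 17475 genes), 1297 genes differed, which is 7.42% of those tested: 526 (3.01%) were higher and 771 (4.41%) were lower with NTX-301. The median size of a called difference was 0.158 on the log2 scale, 168 reached 0.25 and 13 reached 0.5, 3 of them higher and 10 lower. The 3 values of each drug did not overlap for 27.3% of all genes, and for 1293 of the 1297 called. The share called rose with level, from 1.07% of genes with a mean log2 value up to 3 to 15% of those above 12. Among genes with a mean of at least 6, 3.65% were higher and 5.66% lower. The gene lists below were not matched to other genes by level, so shares over all genes may be low for well-expressed lists. Counts of members called in a list stand beside 3.01% higher and 4.41% lower over all genes, also where these shares are not repeated. The count rested on single libraries: it was 462 without NTX-301 replicate 3, 479 without NTX-301 replicate 2 and 767 without DAC replicate 1, of which 445, 468 and 685 were among the 1297.

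**Figure D1:**
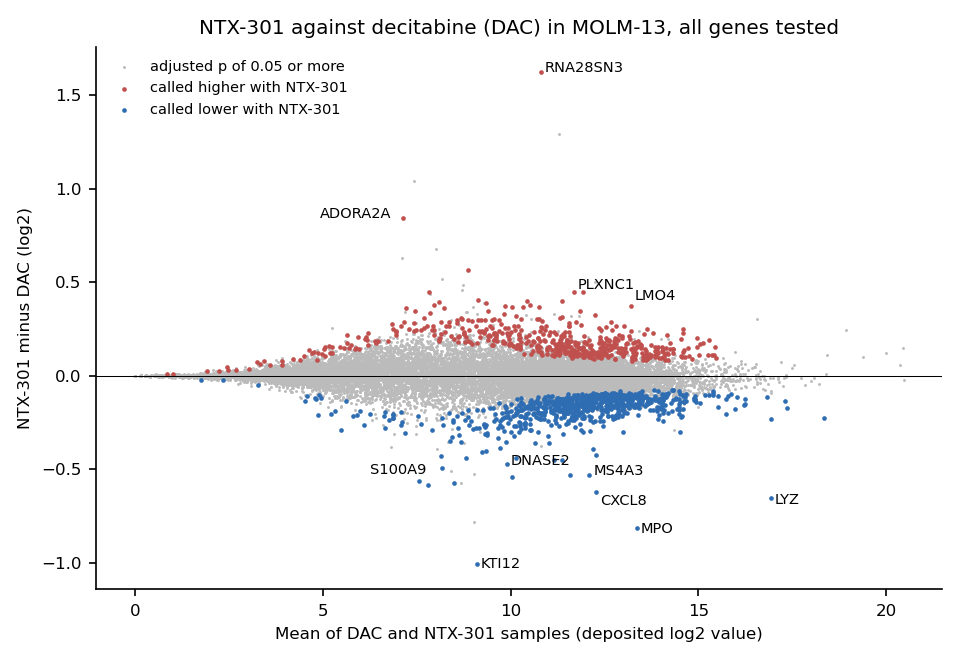
NTX-301 minus DAC in MOLM-13 (y axis, log2) against the mean of the 6 drug samples (x axis, deposited log2 value), one point per gene tested, with the 526 genes called higher in red, the 771 called lower in blue and the rest in grey. Most called genes lie within 0.25 of 0, and MPO (−0.81) and LYZ (−0.66) stand apart among well-expressed genes.

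Against DMSO, DAC changed 6394 genes (36.6%) and NTX-301 changed 7880 (45.1%), and both contrasts use the same 3 DMSO samples. Set on that axis, 409 of the 1297 genes (31.5%) had been moved by both drugs in one direction and farther by NTX-301. A further 497 (38.3%) were called against DMSO with NTX-301 only, and 196 (15.1%) with DAC only. Among genes called against DMSO with both drugs, DAC lay farther out in one direction for 100 (7.71% of the 1297). The directions were opposite for 17 (1.31%), a count that leaves out genes on opposite sides of DMSO without both calls. The remaining 78 (6.01%) were called in neither contrast.

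Genes of a list of granule proteins were called lower with NTX-301 more often than higher. The list holds proteins of the azurophil granules, which promyelocytes and monocyte precursors fill with peroxidase, lysozyme and serine proteases. It also holds eosinophil genes such as EPX and PRG2, and others such as MS4A3, CALR and HGSNAT. Of 22 members tested, 7 were lower and 1 was higher with NTX-301, against 4.41% and 3.01% of all genes. Among the lower calls, EPX, PRG2 and MS4A3 are not genes of azurophil granule proteins. MPO (NCBI Gene 4353), which encodes myeloperoxidase, had log2 values of 13.077, 13.001 and 13.044 with DMSO, 13.76, 13.80 and 13.74 with DAC, and 12.96, 12.97 and 12.93 with NTX-301. DAC raised it by 0.72, whereas NTX-301 was slightly below DMSO (−0.09, adjusted p 0.017), and the drugs differed by −0.81 (SE 0.026, adjusted p 2.4e-08). LYZ (4069), the gene of lysozyme, had 16.42, 16.50 and 16.48 with DMSO, 17.33, 17.21 and 17.21 with DAC, and 16.63, 16.56 and 16.59 with NTX-301. Here too DAC lay well above the other groups, by 0.78 over DMSO against 0.12 for NTX-301, and the difference between drugs was −0.66 (SE 0.036, adjusted p 4.2e-06).

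MS4A3 (932), a membrane protein of granulocyte and monocyte precursors, was moved in opposite directions. Its values were 12.08, 12.20 and 12.14 with DMSO, 12.42, 12.31 and 12.34 with DAC, and 11.87, 11.76 and 11.85 with NTX-301, so no 2 groups overlapped (difference −0.53, SE 0.040, adjusted p 0.00010). EPX, eosinophil peroxidase, followed the pattern of MPO (0.37 against DMSO with DAC, 0.05 with NTX-301, difference −0.32). PRG2, the eosinophil major basic protein, was lower than DMSO with both drugs and lower still with NTX-301 (difference −0.30). SRGN, the proteoglycan that packs granule proteins, differed by −0.22, and PRTN3, the protease proteinase 3, by −0.23. CTSG, the protease cathepsin G, went the other way, with 13.39, 13.41 and 13.34 under DAC and 13.57, 13.53 and 13.53 under NTX-301 (0.16, SE 0.026, adjusted p 0.0050). ELANE (−0.03, adjusted p 0.73) and AZU1 (0.03, adjusted p 0.63), the neighbours of PRTN3 in one protease cluster, gave no call. The median over the 22 genes was −0.04 between the drugs, beside 0.00012 over all genes, and 0.12 with DAC and 0.0056 with NTX-301 against DMSO. Calls of SRGN were lost without NTX-301 replicate 2 or 3 (−0.22 in both), and of PRTN3 without DAC replicate 2 or those NTX-301 replicates (−0.21 to −0.20). PRTN3 was also −0.12 and not called (adjusted p 0.19) after quantile normalization, and not called without a mean-variance trend.

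**Figure D2:**
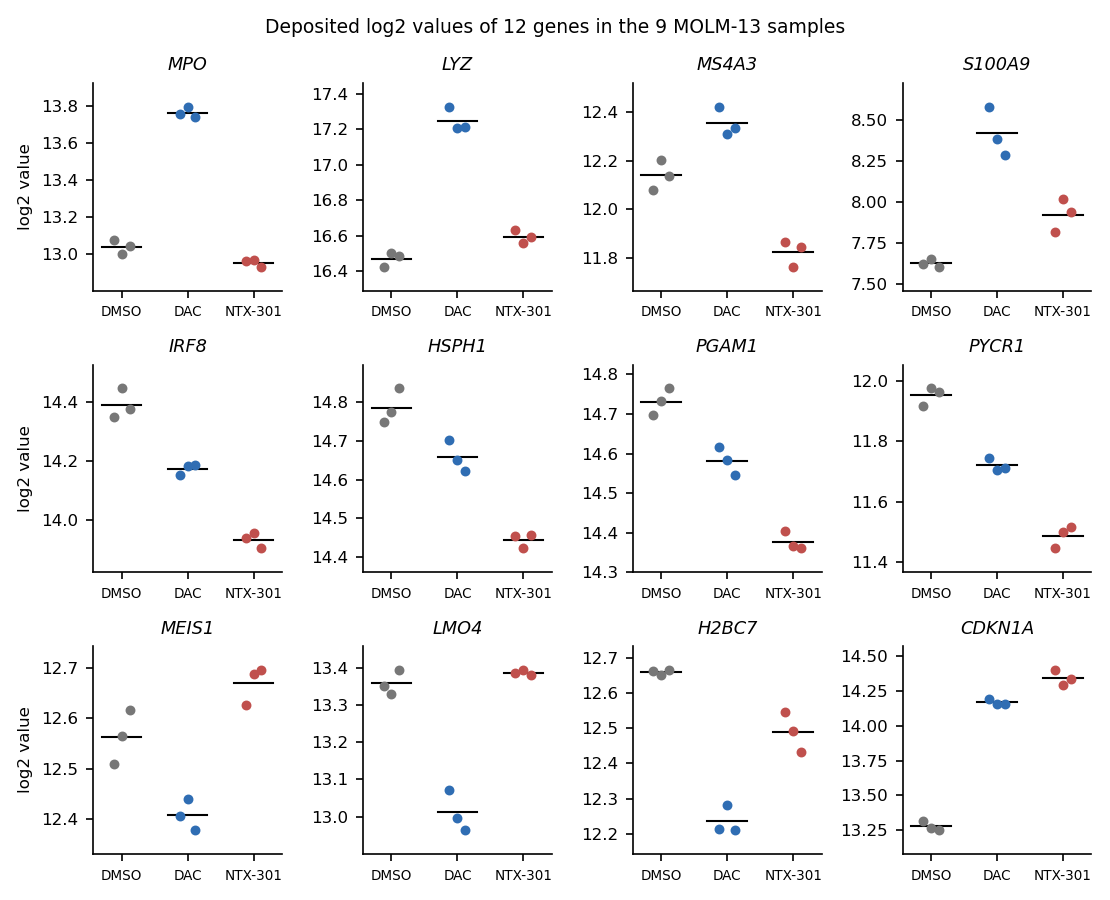
Deposited log2 value (y axis) of 12 genes in each of the 9 MOLM-13 samples, by group, with the group mean as a line and a y axis of its own for each gene. MPO, LYZ and S100A9 are high with DAC, LMO4 and MEIS1 are low with DAC, and IRF8, HSPH1, PGAM1 and PYCR1 step down from DMSO through DAC to NTX-301.

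PRTN3 is printed here because it was the 1 granule gene whose proximal promoter held the core motif of PU.1, the factor that switches on many myeloid genes. The search used the letters GAGGAAGT on both strands in the 250 bases before the start of the RefSeq gene (GRCh38.p14, chr19:840749-840998, plus strand), and capitals mark the match, which starts at −88 from the first base.
PRTN3: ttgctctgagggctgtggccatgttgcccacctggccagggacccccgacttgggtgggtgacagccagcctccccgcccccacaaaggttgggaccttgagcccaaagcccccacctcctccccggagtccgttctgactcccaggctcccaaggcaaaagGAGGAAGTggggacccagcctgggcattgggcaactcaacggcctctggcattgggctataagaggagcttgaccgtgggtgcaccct
Of the 22 granule genes, 13 had an entry in the promoter table, and 1 of these held the motif, as did 2 of 28 monocyte genes (TLR4 and TYROBP) and 2.17% of all 35116 promoters. The table has no entry for MPO or LYZ.

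Genes of mature monocytes and macrophages followed, in the same direction as MPO. Of 33 tested, 12 (36.4%) were called lower, beside 4.41% of all genes. None was called higher (1 at an unadjusted p under 0.05), and 27 lay below 0. The median was −0.10 between the drugs, and 0.38 with DAC and 0.25 with NTX-301 against DMSO. In those contrasts 23 and 21 members were called higher (15.4% and 20.3% of all genes). MNDA (4332), a nuclear antigen of monocytes, had 9.86, 9.96 and 9.93 with DMSO, 10.39, 10.40 and 10.32 with DAC, and 9.89, 9.90 and 10.00 with NTX-301. Only DAC stood above DMSO for this gene (difference −0.44, SE 0.045, adjusted p 0.00062). S100A9 (6280), a calcium-binding protein of neutrophils and monocytes, had 7.623, 7.650 and 7.603 with DMSO, 8.58, 8.39 and 8.29 with DAC, and 7.81, 8.02 and 7.94 with NTX-301. Both drugs raised it, and DAC by more, with no overlap between them (−0.49, SE 0.076, adjusted p 0.0038). MS4A6A, another monocyte membrane protein, was called against DMSO with NTX-301 (−0.36) and not with DAC (−0.10), and the drugs differed by −0.26 (adjusted p 0.0036). CD68, a lysosomal protein of macrophages, rose by 0.68 with DAC and 0.46 with NTX-301 and differed by −0.22. THBD, thrombomodulin, differed by −0.23. The count of 12 was 5 without NTX-301 replicate 2, and 7 without NTX-301 replicate 3 or DAC replicate 1.

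Lists close to this one gave fewer calls. Their counts lower stand beside 4.41% of all genes, and their counts higher beside 3.01%. Among 46 lysosomal genes 6 were lower and none higher (2 unadjusted), with a median of −0.05, and DNASE2, the lysosomal nuclease, led them. DNASE2 had 8.96, 8.87 and 9.13 with DMSO, 10.17, 10.13 and 10.13 with DAC, and 9.68, 9.68 and 9.66 with NTX-301, so that both drugs raised it and DAC by more (−0.47, SE 0.058, adjusted p 0.0013). GRN, progranulin, differed by −0.19 and ATP6V0D1, a subunit of the proton pump, by −0.13. Among 14 S100 and annexin genes 3 were lower: S100A9, ANXA1 (−0.23) and ANXA2 (−0.13). Of 18 genes of MHC class I and peptide loading 3 were lower, namely NLRC5, the class I transactivator (−0.18), HLA-B (−0.13) and HLA-C (−0.15), whose reads can be split among close copies. MHC class II and costimulation gave 1 lower of 11. The phagocyte NADPH oxidase gave 2 lower of 7, among them its catalytic subunit CYBB (−0.19), and complement gave 2 lower of 15, C3 (−0.21) and the complement inhibitor CD59 (−0.22). Of 32 genes of actin cytoskeleton, integrins and adhesion 2 were higher and 6 lower, with the actin-severing protein GSN at 0.20, the nuclear lamin LMNA at −0.14 and the adhesion molecule ICAM3 at −0.19. Of the genes named here, ANXA2 lost its call without DAC replicate 1 or NTX-301 replicates 2 or 3 (−0.14 to −0.11), HLA-C without NTX-301 replicate 2 or 3 (−0.14 and −0.12), and ATP6V0D1 without NTX-301 replicate 2 (−0.12). Without NTX-301 replicate 2 or 3 the lysosomal count was 2 or 3, the count lower in the actin list 3 each, and those of the oxidase and complement 0 each. DAC replicate 1 also took the last 2 counts to 0, and DAC replicate 2 took each to 1.

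Myeloid transcription factors split, with 4 of 31 higher, 4 lower and a median of −0.03. Each count was 12.9% of the list, beside 3.01% higher and 4.41% lower of all genes. IRF8 (3394), which directs monocyte fate, had 14.35, 14.44 and 14.38 with DMSO, 14.15, 14.18 and 14.19 with DAC, and 13.94, 13.96 and 13.90 with NTX-301, 3 separate steps (difference −0.24, SE 0.028, adjusted p 0.0011). CEBPE, the factor of late granulocytes, rose with both drugs, by 0.66 with DAC and 0.30 with NTX-301, and differed by −0.35. ID2, an inhibitor of helix-loop-helix factors, was higher with NTX-301 by 0.31 (SE 0.059, adjusted p 0.010), and by 0.29 and not called without NTX-301 replicate 3. The 4 higher calls were 0 without that replicate, 1 without NTX-301 replicate 2 and 2 without NTX-301 replicate 1 or DAC replicate 1, and the 4 lower calls were 2 without DAC replicate 3 or NTX-301 replicate 2 or 3. SPI1, which encodes PU.1 (−0.05, adjusted p 0.56), and CEBPA (−0.06, adjusted p 0.19) gave no call.

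The programme of the KMT2A fusion ran opposite to the monocyte genes. Of 28 members tested, 11 (39.3%) were higher with NTX-301, beside 3.01% of all genes, and none lower (0 unadjusted as well). Above 0 lay 25 members, beside 50.1% of all genes. The median was 0.08 between the drugs, and −0.08 with DAC and 0.04 with NTX-301 against DMSO. MEIS1 (4211), the cofactor that binds DNA with HOXA proteins, had 12.51, 12.57 and 12.62 with DMSO, 12.41, 12.44 and 12.38 with DAC, and 12.63, 12.69 and 12.70 with NTX-301. DAC lay below DMSO and NTX-301 above it, without overlap (difference 0.26, SE 0.032, adjusted p 0.0012). SENP6, a SUMO protease, had 15.06, 14.98 and 15.03 with DAC and 15.19, 15.21 and 15.20 with NTX-301, the latter at the level of DMSO (0.18, SE 0.024, adjusted p 0.0021). JMJD1C, a demethylase-like cofactor, was raised only by NTX-301 (0.15 against DMSO, difference 0.16, adjusted p 0.0033). BCL2, the survival protein, fell by 0.22 with DAC and 0.09 with NTX-301 and differed by 0.13. PBX3, a partner of MEIS1, differed by 0.15 and HOXA3 by 0.28.

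The best-known members HOXA9 (0.04, adjusted p 0.71), HOXA10 (0.01, adjusted p 0.86), FLT3 (0.09, adjusted p 0.060) and KMT2A itself (0.02, adjusted p 0.71) gave no call on the values as deposited, and HOXA9 was −0.04 without NTX-301 replicate 1. FLT3 was called higher in 5 of 9 other settings, with adjusted p from 0.0030 to 0.118 over the 9. HOXA3 was 0.25 and not called without NTX-301 replicate 3. The count of 11 was 6 without NTX-301 replicate 2 or replicate 3.

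Replication-dependent histone genes, whose transcripts lack a poly(A) tail and accumulate in S phase, were also higher with NTX-301. Of 51 tested, 11 (21.6%) were higher, beside 3.01% of all genes. None was lower (1 unadjusted), and 45 lay above 0. Against DMSO the list was lower with both drugs, its median being −0.42 for DAC and −0.34 for NTX-301, and the median between the drugs was 0.09. H2BC7 (8343) had 12.66, 12.65 and 12.67 with DMSO, 12.21, 12.28 and 12.21 with DAC, and 12.54, 12.49 and 12.43 with NTX-301. The NTX-301 samples lay between the other groups without touching either (difference 0.25, SE 0.031, adjusted p 0.0013). The linker histones H1-2 (0.17, adjusted p 0.0050) and H1-3 (0.20, adjusted p 0.0051) showed the same order. Many histone genes are near-identical copies, so reads may be split among them and single values are uncertain. The count was 4 without NTX-301 replicate 2, 6 without NTX-301 replicate 3, and 5 without NTX-301 replicate 1, DAC replicate 1 or DAC replicate 3. It was 17 after centring each sample, after quantile normalization or over genes with a mean value of at least 6, and 19 with the GC and length trends removed.

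Of 47 genes of replication licensing and S phase, 10 (21.3%) were lower with NTX-301 and 1 higher, beside 4.41% and 3.01% of all genes. The median was −0.05 between the drugs, and −0.28 with DAC and −0.34 with NTX-301 against DMSO. MCM3 (4172), a subunit of the replicative helicase, had 14.74, 14.75 and 14.73 with DMSO, 14.49, 14.47 and 14.44 with DAC, and 14.36, 14.33 and 14.34 with NTX-301. The 3 groups formed 3 steps (difference −0.13, SE 0.021, adjusted p 0.0060). POLD1, the catalytic subunit of polymerase delta (−0.14), and TIPIN, a protein that steadies forks (−0.17), were lower as well, whereas PCNA, the sliding clamp, was not called (0.02, adjusted p 0.75).

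Of 49 genes of G2 and mitosis, 10 (20.4%) were lower, beside 4.41% of all genes, and none higher (2 unadjusted). The median was −0.04 between the drugs, and −0.28 with DAC and −0.33 with NTX-301 against DMSO. UBE2C, the ubiquitin-conjugating enzyme of the anaphase-promoting complex, had 11.49, 11.56 and 11.48 with DAC and 11.36, 11.28 and 11.30 with NTX-301 (−0.20, SE 0.033, adjusted p 0.0056). UBE2S, which extends the chains that UBE2C starts, differed by −0.18 and CCNB1, cyclin B1, by −0.17. The proliferation marker MKI67 (0.07, adjusted p 0.11, but called at 0.10 after quantile normalization) and topoisomerase TOP2A (−0.04, adjusted p 0.38) were not called. Homologous recombination, Fanconi and checkpoint genes gave 1 lower of 34 (2.94%), below the 4.41% of all genes. The S phase count of 10 was 3 without NTX-301 replicate 3, 5 without NTX-301 replicate 2 and 6 without DAC replicate 1. The mitosis count of 10 was 4 without NTX-301 replicate 2 or 3, and 6 without DAC replicate 1 or DMSO replicate 3.

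p53 targets were higher with both drugs than with DMSO. Of 33 members, DAC raised 25 and NTX-301 raised 27 (15.4% and 20.3% of all genes). Between the drugs 4 (12.1%) were higher with NTX-301 and 1 (3.03%) lower, beside 3.01% and 4.41% of all genes, with a median of 0.04. CDKN1A (1026), the cell cycle inhibitor p21, had 13.31, 13.26 and 13.25 with DMSO, 14.19, 14.16 and 14.16 with DAC, and 14.40, 14.29 and 14.34 with NTX-301. Both drugs lay far above DMSO and NTX-301 lay above DAC without overlap (0.17, SE 0.029, adjusted p 0.0059). TP53INP1, a stress protein, differed by 0.19 and DDB2, a sensor of DNA lesions, by 0.18. MDM2, which degrades p53, rose by 0.56 and 0.58 and was not called between the drugs (0.02, SE 0.023, adjusted p 0.63). PMAIP1, which encodes the death protein NOXA, was the 1 member called lower, with 12.46, 12.31 and 12.29 with DAC and 12.13, 12.16 and 12.05 with NTX-301 (−0.24, SE 0.059, adjusted p 0.031). DDB2 was 0.17 and not called without NTX-301 replicate 3, and PMAIP1 was not called without DAC replicate 1 or any single NTX-301 replicate (−0.26 to −0.19). The BCL2 family gave 1 higher (BCL2) and 2 lower of 18, and the lower count was 0 without DAC replicate 1 or any single NTX-301 replicate.

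Heat shock chaperones, which fold and refold proteins, had a higher share of calls in the main fit than any other list examined, but not in every setting. Of 19 members, 11 (57.9%) were lower with NTX-301 and none higher (0 unadjusted), beside 4.41% of all genes, and 18 lay below 0. The median was −0.11 between the drugs, and −0.13 with DAC and −0.26 with NTX-301 against DMSO. HSPH1 (10808), which helps HSP70 to exchange nucleotide, had 14.75, 14.78 and 14.84 with DMSO, 14.70, 14.65 and 14.62 with DAC, and 14.46, 14.42 and 14.46 with NTX-301. The NTX-301 samples lay below both other groups (−0.21, SE 0.029, adjusted p 0.0018). HSPA1A (−0.24, SE 0.028, adjusted p 0.0012) and HSPA1B (−0.23, SE 0.026, adjusted p 0.0010), the inducible HSP70 genes, differed in the same way and are near-identical copies, so reads may be split between them. Neither was called with DAC against DMSO (0.05 and 0.02, adjusted p 0.18 and 0.58). HSP90B1, the HSP90 of the endoplasmic reticulum, differed by −0.17. HSPA8, the constitutive HSP70, had 17.59, 17.69 and 17.67 with DMSO, 17.43, 17.38 and 17.31 with DAC, and 17.25, 17.22 and 17.24 with NTX-301 (−0.14, SE 0.035, adjusted p 0.037). The regulator HSF1 (−0.07, adjusted p 0.26) and the small chaperone HSPB1 (0.02, adjusted p 0.90) gave no call. The count of 11 was 4 without NTX-301 replicate 2 or 3, 5 without DAC replicate 1, 6 without DAC replicate 2 or DMSO replicate 3, and 7 without NTX-301 replicate 1. HSPA8 was not called without DMSO replicate 3, DAC replicate 1 or 2, or any single NTX-301 replicate (−0.14 to −0.11). Without a mean-variance trend 5 of the 19 chaperones were called lower, beside 10 of 25 glycolysis genes. At a minimum difference of 0.25 the chaperone count was 0, beside 5 granule genes.

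The promoter of HSPA8 is shown because it was the 1 chaperone called lower with an exact match to the letters searched for the heat shock element, the site of HSF1. The search covered the 250 bases before its RefSeq start (GRCh38.p14, chr11:123062137-123062386, minus strand). Elements with a changed base or farther out were not sought, so other chaperone promoters may hold them. The element searched was GAA, TTC and GAA with any 2 bases between each, on both strands, and capitals mark 2 matches, which start at −230 and −55 from the first base.
HSPA8: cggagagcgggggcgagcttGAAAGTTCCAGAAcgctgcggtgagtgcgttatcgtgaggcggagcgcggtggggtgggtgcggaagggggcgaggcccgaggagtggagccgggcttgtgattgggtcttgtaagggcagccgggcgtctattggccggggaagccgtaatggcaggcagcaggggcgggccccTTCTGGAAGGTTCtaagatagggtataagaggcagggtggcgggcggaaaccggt
Of 18 chaperone genes with an entry, 2 held an exact match (HSPA8 and DNAJB6, the latter not called), beside 155 of 35116 promoters (0.441%).

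Some genes of glycolysis and of the amino acid response were also lower with NTX-301. Of 25 glycolysis genes, 11 (44.0%) were lower, beside 4.41% of all genes, and none higher (2 unadjusted). The median was −0.09 between the drugs, and −0.08 with DAC and −0.09 with NTX-301 against DMSO. SLC16A3 (9123), which exports lactate, had 12.87, 12.89 and 12.86 with DMSO, 12.89, 12.92 and 12.89 with DAC, and 12.74, 12.65 and 12.68 with NTX-301. Only NTX-301 stood apart for this gene (−0.21, SE 0.027, adjusted p 0.0015). PGAM1, phosphoglycerate mutase (−0.21, adjusted p 0.0016), PFKL, liver phosphofructokinase (−0.13), ENO1, enolase (−0.17), and GPI, glucose phosphate isomerase (−0.12), were lower as well, but ENO1 was −0.09 and not called (adjusted p 0.090) after quantile normalization. The glycolysis count was 5 without NTX-301 replicate 2 or 3, and 7 without DAC replicate 1 or 2.

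Of 32 genes of the ATF4 response and serine synthesis, 12 (37.5%) were lower, beside 4.41% of all genes, and none higher (1 unadjusted). The median was −0.06 between the drugs, and −0.23 with DAC and −0.28 with NTX-301 against DMSO. PYCR1 (5831), which makes proline, had 11.92, 11.98 and 11.96 with DMSO, 11.74, 11.71 and 11.71 with DAC, and 11.44, 11.50 and 11.52 with NTX-301, 3 separate steps (−0.23, SE 0.029, adjusted p 0.0013). MTHFD2, of mitochondrial folate metabolism, differed by −0.20, SLC7A5, a carrier of large neutral amino acids, by −0.18 and PSAT1, of serine synthesis, by −0.12. ATF4 itself fell with both drugs (−0.41 and −0.39) and was not called between them (0.01, adjusted p 0.83). The motif of ATF4 with C/EBP (TGATGNAA, both strands) was in 3 of 26 promoters with an entry (ASNS, CHAC1 and ATF3) and in 3.14% of all promoters, and in none of the 8 members with an entry that were called lower. The ATF4 count was 5 without NTX-301 replicate 2 or 3.

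**Figure D3:**
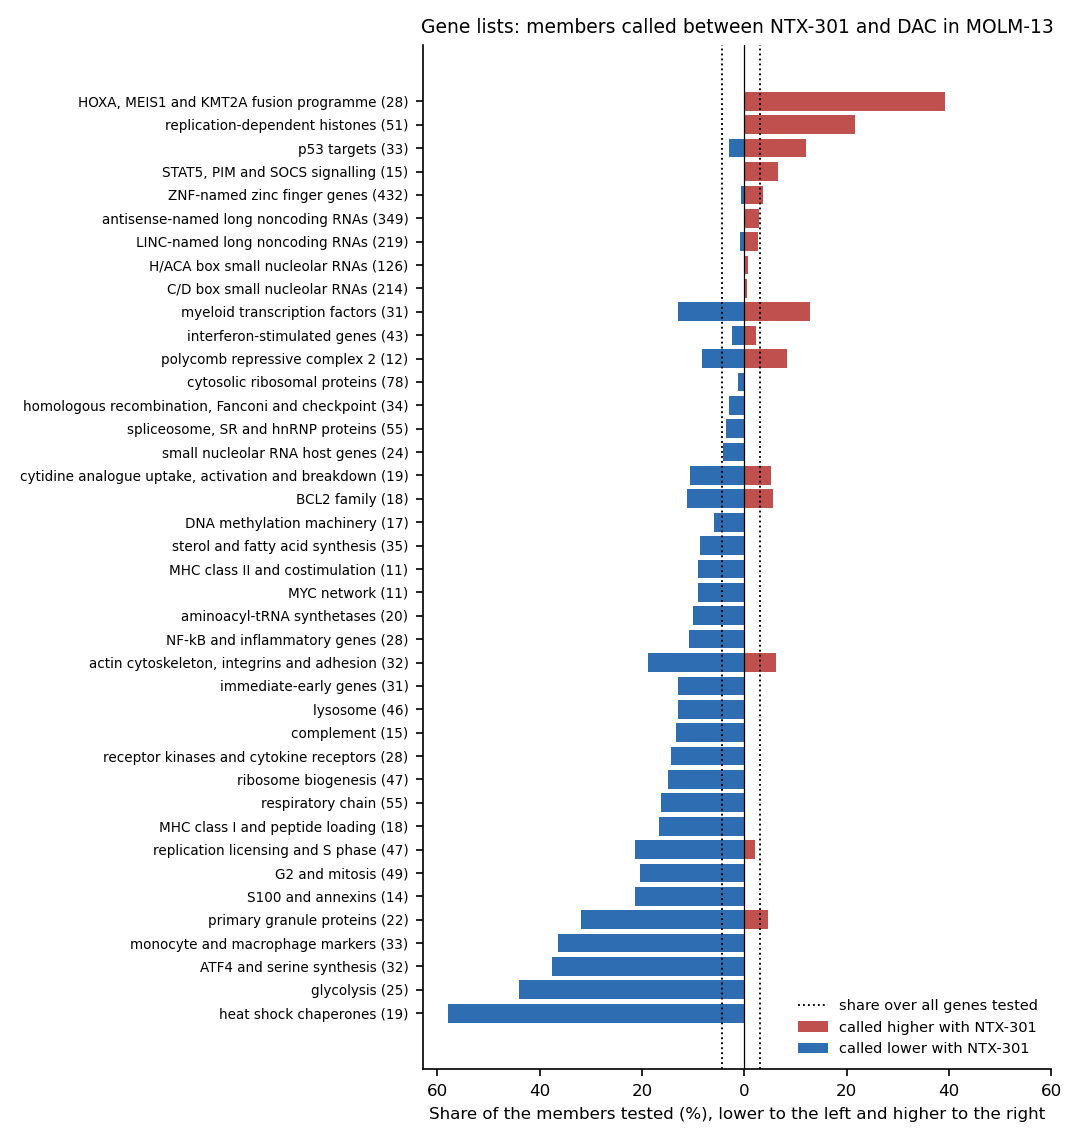
Share of the members of each gene list (number tested in brackets, lists of at least 10) called lower (blue, to the left) or higher (red, to the right) with NTX-301 than with DAC, in percent, with dotted lines at the shares over all genes (4.41% and 3.01%). Heat shock chaperones reach 57.9% lower at the foot of the plot, and the HOXA, MEIS1 and KMT2A fusion programme leads the higher side with 11 of 28.

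Other lists of metabolism and protein synthesis gave smaller shares, which stand beside 4.41% lower of all genes. Of 55 respiratory chain genes 9 were lower and none higher (1 unadjusted), with a median of −0.06, led by UQCRC1 of complex III (−0.18, adjusted p 0.0012), COX8A of complex IV (−0.18, adjusted p 0.0025) and NDUFB10 of complex I (−0.17, adjusted p 0.019). Of 47 ribosome biogenesis genes 7 were lower (4 without NTX-301 replicate 2), led by BOP1 (−0.15), RRP1 (−0.17) and RRP12 (−0.18), which process pre-rRNA. Sterol and fatty acid synthesis, which fell with both drugs (medians −0.28 and −0.35), gave 3 lower of 35: the fatty acid synthase FASN (−0.22) and the sterol enzymes EBP (−0.16) and MVD (−0.16), with 1 left without NTX-301 replicate 2 or 3. Aminoacyl-tRNA synthetases gave 2 lower of 20, VARS1 (−0.18) and MARS1 (−0.12). Cytosolic ribosomal proteins gave 1 of 78 (1.28%) and spliceosome, SR and hnRNP proteins 2 of 55 (3.64%), both below the share of all genes. The respiratory count was 4 without DAC replicate 1, 3 without DAC replicate 2 and 2 without NTX-301 replicate 2 or 3. NDUFB10 lost its call without DAC replicate 2 or NTX-301 replicates 2 or 3 (−0.16 to −0.15), EBP without those NTX-301 replicates (−0.16 and −0.15), and MVD without them or DAC replicate 1 (−0.16 to −0.15).

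Genes of DNA methylation and of nucleoside handling were examined because they bear on the drugs themselves. DNMT1, the common target, had 14.58, 14.51 and 14.53 with DMSO, 14.34, 14.38 and 14.36 with DAC, and 14.28, 14.29 and 14.27 with NTX-301. The drug groups did not overlap, but the difference missed the threshold (−0.08, SE 0.023, adjusted p 0.062). It passed in 3 of 9 other settings, with adjusted p from 0.027 to 0.246 over the 9, and in 1 of the 9 fits that left out a sample. UHRF1, which guides DNMT1 to half-methylated sites, was the 1 of 17 genes of the methylation machinery that was called (5.88%, beside 7.42% of all genes). It had 13.961, 13.998 and 13.964 with DAC and 13.81, 13.79 and 13.80 with NTX-301 (−0.18, SE 0.025, adjusted p 0.0025). The de novo enzymes DNMT3A (0.11, adjusted p 0.062) and DNMT3B (−0.0046, adjusted p 0.96) were not called, and the sign of DNMT3B depended on the scaling.

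Of 19 genes of cytidine analogue uptake, activation and breakdown, 2 (10.5%) were lower and 1 (5.26%) higher with NTX-301, beside 4.41% and 3.01% of all genes. SAMHD1 (25939), a phosphohydrolase that removes nucleotide triphosphates, had 12.80, 12.86 and 12.87 with DMSO, 13.09, 13.06 and 13.03 with DAC, and 12.87, 12.82 and 12.84 with NTX-301. DAC alone raised it (difference −0.22, SE 0.027, adjusted p 0.0014). SLC29A1, the nucleoside transporter ENT1, had 11.98, 12.13 and 12.05 with DAC and 11.92, 11.82 and 11.88 with NTX-301 (−0.18, SE 0.043, adjusted p 0.031). NT5C2, a nucleotidase, was higher by 0.10 (adjusted p 0.019). DCK, the activating kinase (−0.03, adjusted p 0.77), and CDA, which deaminates cytidines (−0.17, adjusted p 0.060), were not called. SLC29A1 lost its call without DAC replicate 2 or 3 or NTX-301 replicate 2 or 3 (−0.18 to −0.14), and NT5C2 without DAC replicate 2 or NTX-301 replicates 2 or 3 (0.09 to 0.10).

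Signalling and inflammatory lists held a few large differences. Their counts lower stand beside 4.41% of all genes. CXCL8 (3576), the neutrophil chemokine interleukin-8, had 12.37, 12.27 and 11.91 with DMSO, 12.90, 12.45 and 12.41 with DAC, and 11.98, 12.05 and 11.89 with NTX-301 (−0.62, SE 0.128, adjusted p 0.015). The DMSO samples overlapped with those of NTX-301, and the groups spread widely. TNF, the inflammatory cytokine, differed by −0.45 (SE 0.100, adjusted p 0.022) and PLAUR, the urokinase receptor, by −0.13, which made 3 lower of 28 genes of NF-kB and inflammation. Of 31 immediate-early genes 4 were lower, with EGR1 at −0.36 (adjusted p 0.018), DUSP2 at −0.25 (adjusted p 0.012) and EGR2 at −0.23 (adjusted p 0.035) at the lowest p-values. The count of 4 was 1 without DAC replicate 1 or NTX-301 replicate 2 or 3 and 2 without DAC replicate 2, and that of 3 was 1 without NTX-301 replicate 3. Without NTX-301 replicate 3, CXCL8 was −0.58 and not called. TNF was not called without DAC replicate 1 or NTX-301 replicates 1 or 3 (−0.44 to −0.35), EGR1 without DAC replicate 1 or NTX-301 replicates 2 or 3 (−0.37 to −0.31), and EGR2 without DAC replicates 1 or 2 or NTX-301 replicates 2 or 3 (−0.25 to −0.19).

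Receptor kinases and cytokine receptors gave 4 lower of 28 (14.3%, beside 4.41% of all genes). They were led by TYRO3 (−0.32, adjusted p 0.0070), a kinase of the AXL family, CCR2 (−0.19), the receptor that draws monocytes to CCL2, and CXCR4 (−0.17), which holds leukaemic cells in the marrow. AXL rose by 1.07 with DAC and 1.19 with NTX-301 and was not called between them (0.13, SE 0.040, adjusted p 0.080). SOCS2 (0.21, adjusted p 0.0019), a feedback inhibitor of cytokine receptors, was the 1 call among 15 genes of STAT5, PIM and SOCS signalling. The MYC network gave 1 lower of 11 (9.09%), and polycomb repressive complex 2 gave 1 higher and 1 lower of 12 (8.33% each). The shares of all genes were 4.41% lower and 3.01% higher. Interferon-stimulated genes rose with both drugs, with 22 and 25 of 43 called higher (15.4% and 20.3% of all genes) and medians of 0.13 and 0.15. Between the drugs they gave 1 higher (IFITM2, 0.21) and 1 lower (IFIT1, −0.13), each 2.33% of the list and below the shares of all genes. The first call was lost in 7 and the second in 3 of the 9 fits that left out a sample. Of 31 cancer-testis genes 6 were listed and none was called by limma (0 at an unadjusted p under 0.05). CXCR4 was −0.15 and not called without NTX-301 replicate 2, where the receptor count was 2.

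**Figure D4:**
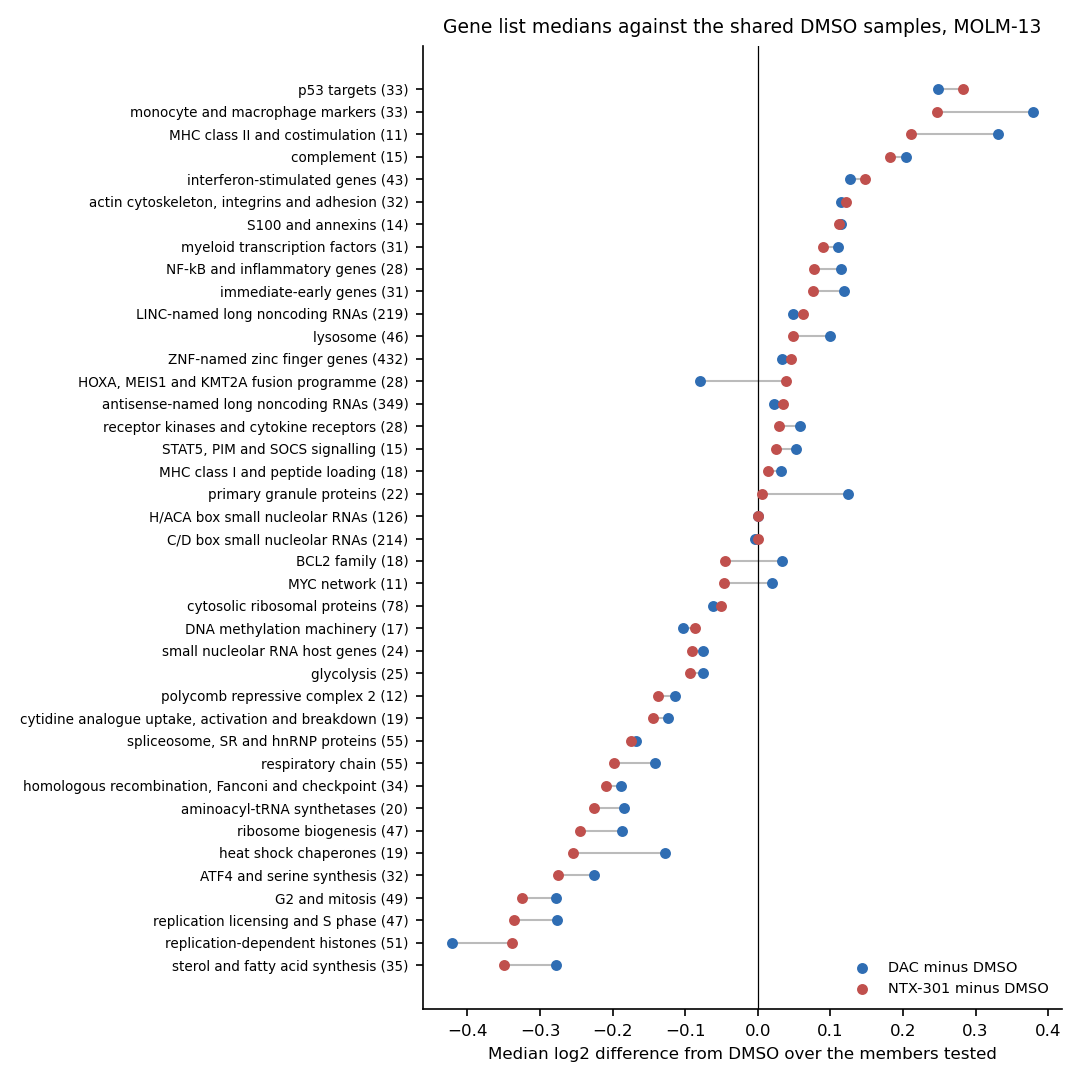
Median log2 difference from DMSO over the members of each gene list (x axis), with DAC in blue and NTX-301 in red, the number of members tested in brackets and lists of at least 10 members shown. Both medians use the same 3 DMSO samples. Monocyte and macrophage markers lie at 0.38 and 0.25, heat shock chaperones at −0.13 and −0.26, and the fusion programme on either side of 0 at −0.08 and 0.04.

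Among single genes with the largest differences, several belonged to none of these lists. Higher with NTX-301 were PLXNC1 (10154), a semaphorin receptor, with 11.49, 11.43 and 11.50 with DAC and 11.87, 11.98 and 11.91 with NTX-301, and LMO4 (8543), a LIM-domain adaptor, with 13.073, 12.998 and 12.964 against 13.39, 13.39 and 13.38. For both, NTX-301 stood at the level of DMSO and DAC below it (differences 0.45 and 0.38, adjusted p 0.00025 and 0.00011). SBF2, a membrane trafficking protein, differed by 0.40, NOG, the BMP antagonist noggin, by 0.40, RIPOR2 by 0.45, KRT17, a keratin, by 0.39, KCNMA1, a potassium channel, by 0.38 and ITGB5, an integrin subunit, by 0.37. The small nucleolar RNA SNORD17 differed by 0.40. LOC107985430 (0.56), LOC112268009 (0.45), LOC101928361 (0.39) and LOC112268100 (0.38) are unnamed loci.

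RNA28SN3, a copy of the 28S ribosomal RNA gene, showed the largest difference of all (1.63, SE 0.44, adjusted p 0.046) with DAC values of 11.25, 9.53 and 9.22 and NTX-301 values of 11.62, 11.58 and 11.68. It is a multicopy gene in libraries that were depleted of rRNA, so its value is uncertain. Its DMSO values ran from 9.15 to 10.51. Of 14 rRNA genes tested 3 were called, all higher with NTX-301, beside 3.01% of all genes. Whether the rRNA left after depletion differed between samples was not tested. ADORA2A, an adenosine receptor, had 6.84, 6.73 and 6.56 with DAC and 7.55, 7.54 and 7.58 with NTX-301 (0.84, SE 0.182, adjusted p 0.018), but 1 DMSO sample, at 7.42, lay near the latter. RNA28SN3 lost its call without DMSO replicate 3, DAC replicate 2 or 3 or any single NTX-301 replicate (1.24 to 1.65). ADORA2A lost it without DAC replicate 3 or any single NTX-301 replicate (0.77 to 0.85). LOC101928361 (0.34 to 0.38) and LOC112268100 (0.30 to 0.38) lost theirs without DAC replicate 1 or 2 or NTX-301 replicate 2 or 3.

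Lower with NTX-301 were COL8A2 (1296), a collagen chain, with 11.87, 11.86 and 11.83 with DAC and 11.32, 11.35 and 11.29 with NTX-301 (−0.53, SE 0.029, adjusted p 4.2e-06), and TTN, titin (−0.54, adjusted p 0.00036). Both lay above DMSO with DAC and below it with NTX-301. ORM1, an acute-phase glycoprotein (−0.58), NAV3, a microtubule-associated protein (−0.57), AGT, angiotensinogen (−0.56), and TIFAB, a regulator of TRAF6 signalling (−0.45), were raised by DAC and lower with NTX-301 than with DAC. Against DMSO, NTX-301 also raised ORM1 (0.19, adjusted p 0.036) and AGT (0.28, adjusted p 0.0095). It was not called for NAV3 (0.11) or TIFAB (0.02). KTI12, an elongator-associated factor, had 9.45, 9.69 and 9.70 with DAC and 8.28, 9.17 and 8.36 with NTX-301 (−1.01, SE 0.255, adjusted p 0.036). Its DMSO values, from 8.56 to 9.62, overlapped both drug groups, and the call was lost without any single DAC replicate or NTX-301 replicates 1 or 3 (−1.09 to −0.85).

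By class of gene, 1156 of 12269 protein-coding genes (9.42%) were called, 407 higher and 749 lower. Of 2153 long noncoding RNAs 80 (3.72%) were called, 70 higher and 10 lower. The classes were not matched for level, with which the share called rose. Of 349 RNAs named as antisense 10 were higher and none lower (10 unadjusted), with a median of 0.01, and their 2.87% higher was near the 3.01% of all genes. PSMA3-AS1 (0.16), CCDC18-AS1 (0.20) and KMT2E-AS1 (0.23) had the lowest p-values, and because use of strand in counting is not given in the sources used here, reads of the partner gene cannot be told apart. Of 219 LINC-named RNAs 6 were higher (2.74%) and 2 lower. Among 432 zinc finger genes named ZNF 16 were higher (3.7%) and 3 lower, with a median of 0.02, shares also near that of all genes. ZNF521 (0.23, adjusted p 0.0037), ZNF655 (0.19) and ZNF700 (0.16) had the lowest p-values among them. C/D box and H/ACA box small nucleolar RNAs gave 1 higher each, of 214 and 126 (0.467% and 0.794%, below the 3.01% of all genes). Their host genes gave 1 lower of 24 (4.17%, near the 4.41% of all genes). The antisense RNAs lost their calls without 1 sample as follows: PSMA3-AS1 without DAC replicate 1 or NTX-301 replicate 2 (0.13 and 0.15), CCDC18-AS1 without DAC replicates 1 or 2 or NTX-301 replicates 2 or 3 (0.17 to 0.21), and KMT2E-AS1 without DMSO replicate 3, DAC replicates 1 or 2 or any single NTX-301 replicate (0.18 to 0.25). ZNF700 was 0.14 and not called without NTX-301 replicate 2 or 3. The antisense count of 10 was 0 without NTX-301 replicate 2, 1 without NTX-301 replicate 3 or DAC replicate 1, 2 without DAC replicate 2, 5 without DAC replicate 3 or DMSO replicate 3 and 6 without NTX-301 replicate 1 or DMSO replicate 2. The zinc finger count of 16 was 3 and 4 without NTX-301 replicates 2 and 3, 7 and 6 without DAC replicates 1 and 2, and 9 and 10 without DMSO replicates 2 and 3. The LINC count of 6 was 1 without NTX-301 replicate 2 or 3, 3 without DAC replicate 1 and 2 without DAC replicate 2.

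Transcript length and GC content moved with the direction of the calls. Protein-coding genes called lower had a median GC content of 54.2% and a median transcript length of 3019 bases, those called higher 45.6% and 4805 bases, and all tested 48.4% and 3624 bases (longest GENCODE 29 transcript, found for 98.9% of them). In the fifth of genes with the highest GC content 258 were lower and 28 higher, whereas in the fifth with the lowest 101 were lower and 97 higher. With these trends removed from each sample, an alternative chosen after seeing the data, 1791 genes were called, 719 higher and 1072 lower, of which 1141 were among the 1297. Under it 15 chaperones, 13 glycolysis genes, 13 ATF4 genes, 15 monocyte genes and 7 granule genes were lower, and 13 genes of the fusion programme were higher. The p53 list then gave 8 higher in place of 4.

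**Figure D5:**
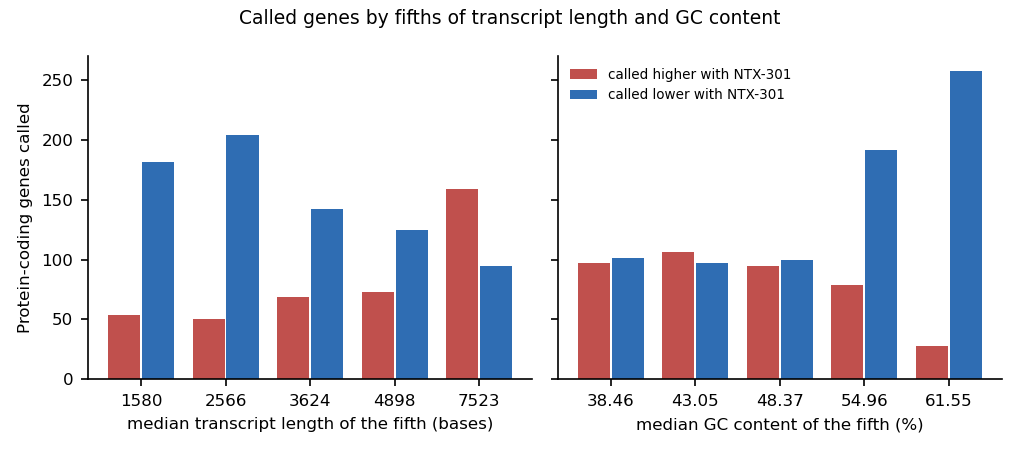
Number of protein-coding genes called higher (red) or lower (blue) with NTX-301 than with DAC (y axis), in 5 equal groups of genes by transcript length (left, bases) and by GC content (right, percent), each labelled with its median. Lower calls rise to 258 in the group of highest GC content, and the longest genes are the 1 length group with more higher (159) than lower (95) calls.

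The same contrast in HL-60, a promyelocytic line whose stated concentration was 30 nM, was set beside it in a fit of all 18 samples over 15474 genes. Dose and line cannot be told apart there, and the files of each line list their own set of genes. The difference between drugs was not the same in the lines for 2745 genes (17.7%), 1289 (8.33%) more positive and 1456 (9.41%) more negative in MOLM-13, and after centring each sample for 2042 and 1143. In HL-60, 13.1% of these genes were called higher with NTX-301 than with DAC and 13.7% lower. Of the cell cycle lists there, 31 of 47 S phase genes and 29 of 49 mitosis genes were higher with NTX-301 and none lower, with medians of 0.11 and 0.10, beside −0.05 and −0.04 in MOLM-13. The test of the difference between lines called 32 of each list more negative in MOLM-13 and none more positive, and 24 and 28 after centring.

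Of 21 granule genes tested in both lines, 15 were called lower with NTX-301 in HL-60, against 13.7% of all genes, with a median of −0.28, and the test of the difference between lines gave 12 members more positive and 4 more negative in MOLM-13. MPO differed by −0.81 in MOLM-13 and −0.28 in HL-60 (difference −0.53, SE 0.033, adjusted p 7.0e-09), and LYZ by −0.66 and −0.32. For PRTN3 the larger difference was in HL-60, with −0.23 in MOLM-13 and −0.82 in HL-60 (difference 0.59, adjusted p 7.0e-06). LYZ differed between the lines by −0.34 (adjusted p 3.95e-05). Of 23 monocyte genes tested in both lines, 11 were more negative in MOLM-13 and 3 more positive, and of 23 genes of the fusion programme 4 were more positive and none more negative. DNASE2 (−0.47 and 0.22), CTSG (0.16 and −0.30) and H1-3 (0.20 and −0.46) were called in opposite directions in MOLM-13 and HL-60, and S100A9 was −0.49 in MOLM-13 and 0.15, not called, in HL-60 (difference −0.65, adjusted p 5.4e-05).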

How the data were processed

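Total RNA was sequenced with a stranded, rRNA-depleted kit, per the labels' protocols. Trimmomatic 0.38, HISAT2 and StringTie were used with build hg19, per the submitters' processing notes. The normalization method and the use of strand are not given in the sources used here. The authors deposited a normalised log2 value per gene and sample, and this was used as it stands. In MOLM-13 all 17475 listed genes reached a linear value of 1 in at least 3 samples, so 0 were filtered.

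The 9 MOLM-13 samples were fitted together with limma 3.58.1 in R 4.3.3 (mean-variance trend, 6 residual degrees of freedom), the contrast was NTX-301 minus DAC, and the Benjamini-Hochberg adjustment covered every gene tested. The lines were compared with an interaction term over 15474 genes. On simulated data of 17475 genes, 98% of 50 changes of 0.5 were recovered, with 9 false calls in all. Changes were added to 50 genes at each size, all with a mean of at least 6, and no other gene differed between groups.

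Genes named are the 15 highest and 15 lowest called differences whose higher group had a mean of 6 or more and whose samples did not overlap, the 3 members with the lowest p of lists described by their members, and a set of drug-related genes. A few genes that this would name are not reported here. Members and lists were chosen with earlier results of these data known. Alternatives were other scalings, filters, fits, a replicate block, leaving out each sample and, chosen after seeing the data, removal of GC and length trends. Promoter sequences and gene classes are from RefSeq (GRCh38.p14), used for names and sequences only, and transcript properties from GENCODE 29.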

Additional observations from a re-analysis of the deposited data

Results flagged for a closer look

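The difference between NTX-301 and DAC was tested for being unequal in MOLM-13 and HL-60 (limma, interaction term, adjusted p under 0.05 over 15474 genes), as 17.7% of all genes were. Of the 139 genes named, 121 were tested in both lines and 71 differed, 40 with a more negative and 31 with a more positive difference in MOLM-13. For 32 of the 71 the signs were opposite in the lines, whether or not the gene was called in each line. That count takes in values near 0 in 1 line, such as CYBB in HL-60 (0.00048) and DNMT3B in MOLM-13 (−0.0046). Each value is the log2 difference in MOLM-13 after subtracting the one in HL-60, and dose and line cannot be told apart.

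Granule and secretory genes with a more negative value in MOLM-13 were MPO (−0.53), LYZ (−0.34) and MS4A3 (−0.37). More positive were EPX (0.35), PRG2 (0.67), PRTN3 (0.59), SRGN (0.39), CTSG (0.46), ELANE (0.48) and AZU1 (0.48). Monocyte, lysosomal, complement and inflammatory genes with a more negative value in MOLM-13 were S100A9 (−0.65), MNDA (−0.37), CD68 (−0.21), CYBB (−0.19), DNASE2 (−0.69), GRN (−0.33), NLRC5 (−0.15), ANXA1 (−0.25), C3 (−0.64), CCR2 (−0.62), TYRO3 (−0.68) and IFIT1 (−0.27). CXCL8 (0.77), EGR1 (0.55) and LMNA (0.33) had a more positive value. Transcription factors and genes of the fusion programme with a more negative value in MOLM-13 were CEBPE (−0.31) and ID2 (−0.41). In the same set, those with a more positive value were SPI1 (0.18), JMJD1C (0.17), SENP6 (0.22) and LMO4 (0.33). Cell cycle, histone and cell death genes with a more negative value in MOLM-13 were MCM3 (−0.25), POLD1 (−0.28), TIPIN (−0.13), PCNA (−0.14), UBE2C (−0.25), UBE2S (−0.39), CCNB1 (−0.24), TOP2A (−0.14) and MKI67 (−0.13). More positive were H1-3 (0.66) and PMAIP1 (0.40). Chaperones and metabolic genes with a more negative value in MOLM-13 were HSPA1A (−0.15), HSPH1 (−0.23), HSPA8 (−0.19), PGAM1 (−0.12), UQCRC1 (−0.17), COX8A (−0.19), NDUFB10 (−0.17) and EBP (−0.12). Values were more positive for SLC16A3 (0.17), FASN (0.19), MVD (0.16), PSAT1 (0.25), ATF4 (0.15), VARS1 (0.17) and MARS1 (0.076). Genes of DNA methylation and nucleotide handling with a more negative value in MOLM-13 were DNMT1 (−0.11), DNMT3B (−0.59) and UHRF1 (−0.11). In the same set, the 1 with a more positive value was NT5C2 (0.17). The remaining genes with a more negative value in MOLM-13 were KRT17 (−0.30), ORM1 (−0.50) and NAV3 (−0.56). In the same set, those with a more positive value were LOC112268009 (0.67), NOG (0.25), SBF2 (0.49), LOC101928361 (0.51), LOC112268100 (0.40), ZNF655 (0.23) and PSMA3-AS1 (0.14). The call of a difference between lines was lost for EBP (−0.10), HSPA1A (−0.13), PCNA (−0.12), TIPIN (−0.11) and UHRF1 (−0.085) after centring each sample. It was lost for CD68 (−0.16), CYBB (−0.16), HSPA1A (−0.10), MARS1 (0.059), SPI1 (0.19) and ZNF655 (0.23) after quantile normalization within each line.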

How the results depend on the processing

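Depth is unknown and 3 samples a group limit the precision: simulated differences of 0.15 were found in 22% of 50 genes, and of 0.25 in 68%. The simulation changed far fewer genes than the 1297 called here, all with a mean of at least 6. The share found depends on how many genes differ, so these shares may not hold for the data. Leaving out each MOLM-13 sample in turn gave 462 to 1322 called genes (179 to 515 higher, 283 to 807 lower). For the difference between lines only the DAC and NTX-301 samples of either line were left out in turn, and no DMSO sample. That gave 2128 to 2745 genes (1017 to 1300 more positive, 1110 to 1485 more negative). For the lists, the fits that left out a MOLM-13 sample gave 3 to 6 p53 targets, 4 to 15 histones and 6 to 12 fusion programme genes higher. They gave 5 to 12 ATF4 genes, 4 to 9 mitosis, 5 to 9 glycolysis, 4 to 11 chaperone, 5 to 12 monocyte, 5 to 7 granule and 3 to 10 S phase genes lower. Replicate numbers were not used as pairs in the main fit. Deviations of same-numbered DAC and NTX-301 samples correlated by 0.115, 0.00989 and 0.0599, and of other-numbered ones by −0.124 to 0.0709. Same-numbered DMSO samples gave −0.17, −0.12 and −0.064 with DAC, and 0.00763, 0.0205 and −0.0305 with NTX-301. Such values cannot show whether samples of 1 number were handled together. With the replicate block 817 genes were called (330 higher, 487 lower, 788 of the 817 among the 1297), with 6 mitosis, 7 glycolysis and 6 chaperone genes lower and 7 histones higher, and 2450 genes for the difference between lines. Fitting only the 6 drug samples gave 6 mitosis and 7 chaperone genes. Without a mean-variance trend there were 4 mitosis genes, 5 chaperones and 6 histones. A minimum difference of 0.25 left 168 genes (81 higher, 87 lower), with 3 monocyte, 2 fusion programme, 1 histone and 1 glycolysis gene, and 0 p53, S phase, mitosis, ATF4 or chaperone genes. Histones numbered 17 after centring, after quantile normalization and at a mean value of at least 6, and 19 with GC and length trends removed, where 8 p53 targets were higher. Centring gave 2042 genes more positive in MOLM-13. Among named genes, calls of RNA28SN3, ADORA2A, LOC101928361, LOC112268100, KTI12, CXCL8, TNF, SLC29A1, PRTN3, HSPA8, PMAIP1 and EGR1 were lost without a mean-variance trend. Those of LOC112268100, EGR2, KMT2E-AS1 and IFITM2 were lost with only the 6 drug samples, those of RNA28SN3, SLC29A1, PRTN3 and ENO1 after quantile normalization, and those of SLC29A1, NT5C2, HSPA8, KMT2E-AS1, C3 and IFITM2 with the replicate block. Calls were gained by FLT3 (5 settings), DNMT1 and CDA (3 each), AXL (2), DNMT3A and MKI67 (1 each). Signs turned for these genes, none of them called: DNMT3B was 0.00227 after centring, 0.00809 after quantile normalization, 0.00371 with array weights and 0.00225 with GC and length trends removed, where MDM2 was −0.00334, KMT2A −0.00909 and ELANE 0.00744. With 1 sample left out, values ran on both sides of 0 for 9 genes: DNMT3B −0.0299 to 0.0177, DCK −0.0673 to 0.0131, HSPB1 −0.0356 to 0.0767, AZU1 −0.00118 to 0.0543, HOXA9 −0.0421 to 0.0858, HOXA10 −0.0147 to 0.038, ELANE −0.0805 to 0.00619, ATF4 −0.0119 to 0.0489 and PCNA −0.0015 to 0.0561. The cause was not tested.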
